A study of Homo sapiens with 8 samples.

Results

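Most of the subunits of the mitochondrial respiratory chain and of ATP synthase are encoded by nuclear genes, and these genes were followed in MCF10A cells cultured in 4 kinds of hydrogel. Genes were chosen by symbol alone. The symbols were those beginning with NDUFA, NDUFB, NDUFC, NDUFS or NDUFV and a digit (complex I), SDHA to SDHD (complex II), those beginning with UQCR together with CYC1 (complex III), those of the COX4 to COX8 families (complex IV) and those beginning with ATP5 (complex V). Of the 25369 rows of the table, 93 matched, and 83 of them reached 10 normalized counts in 2 or more libraries and are called members here. Complex I gave 40 members, complex II 4, complex III 10, complex IV 12 and complex V 17. The names brought in 7 members that encode no subunit, namely NDUFA6-AS1, NDUFB2-AS1, NDUFA4L2, UQCRHL, COX7A2L, ATP5S and ATP5SL, so that 76 members were subunit genes. The minimum that made a row a member is also the minimum for testing, so the 10 rows below it were not tested.

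Complex I takes electrons from NADH and complex II takes them from succinate, and both pass them to ubiquinone. Complex III hands them on to cytochrome c and complex IV to oxygen, and complex V uses the proton gradient that complexes I, III and IV build to make ATP. Each complex except complex II joins subunits made from nuclear genes with a few core subunits made from mitochondrial DNA. The nuclear genes are known to be expressed together in most tissues, and NRF1, GABPA, YY1 and ERR alpha are transcription factors known to bind many of their promoters. None of the 13 genes of mitochondrial DNA is listed in the table, so the nuclear part alone is described.

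MCF10A is a spontaneously immortalized, nontransformed human mammary epithelial line, and the same unmodified line was used in every gel. Cells were encapsulated for 7 days in 1 of 4 gels, named stiff IPN, soft IPN, stiff col and soft col:rBM, with 2 libraries per gel that came from separate trials numbered replicate 1 and replicate 2. Both IPNs are interpenetrating networks of alginate and reconstituted basement membrane (rBM), and calcium crosslinking of the alginate makes the stiff IPN stiff. The soft col:rBM gel holds rBM with a little collagen-1, while the stiff col gel holds collagen-1 at high density and is named without rBM. The study's methods give the same rBM concentration for all experiments and a layer of gelled rBM under the gels. Whether the stiff col gel itself held rBM is therefore left uncertain here. Stiffness and composition cannot be told apart between the collagen gels or between the stiff col gel and the stiff IPN. The study asked whether the transcriptional regulator YAP mediates the response to stiffness in breast cancer, in patient samples and in three-dimensional culture. RNA-seq of these gels was used beside assays of YAP localization, phosphorylation and knockout.

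The promoters of the members were searched for short motifs of factors known for this group of genes. Of 66 windows, 28 held none of the NRF1, ETS and YY1 cores, against 22031 of the 27305 windows of all genes, tested or not. Each core was found more often in windows of genes tested than in all windows (NRF1 7.55% against 4.67%, ETS 19.2% against 10.7%, YY1 7.6% against 6.06%). Windows with none were not counted for genes tested alone. RefSeq windows from 250 bases before to 50 bases after the transcription start (GRCh38.p14) were found for 66 of the 83 members, 62 of which were subunit genes, and each was searched on both strands. The NRF1 core GCGCATG was found in 14 of the 62 subunit gene windows (22.6%), against 7.55% of the 10394 windows of genes tested. The ETS core CCGGAAG, bound by GABPA, was found in 19 (30.6%, against 19.2%), and the YY1 core AAGATGG in 16 (25.8%, against 7.6%). The ERR half-site AAGGTCA was found in 8 (12.9%, against 2.56%). The Sp1 box GGGCGG was found in 38 (61.3%, against 69.9%), the CCAAT box CCAAT in 20 (32.3%, against 36.5%) and the TATA box TATAAA in 6 (9.68%, against 5.66%). These motifs differ in letters, although a window may hold several of them. A match of 7 letters or fewer is a description of the sequence and not a site of binding.

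Promoters of 3 members are given here as their 250 bases before the start, in the direction of the gene, with the NRF1, ETS and YY1 cores in capitals. ATP5G2 (RefSeq ATP5MC2, chr12:53676084-53676333, minus strand) is shown because it was the member with the largest difference between the IPNs, and it has an NRF1 core that begins 39 bases before the start on the opposite strand. SDHB (chr1:17054033-17054282, minus strand) and ATP5J (RefSeq ATP5PF, chr21:25735055-25735304, minus strand) are shown because their windows hold all 3 cores, as do those of 3 members in all. Of the 27305 windows of all genes, tested or not, 22 hold all 3, and this was not counted for genes tested alone. In SDHB the third core, that of YY1, begins at base 11 after the start and lies outside the printed stretch.
ATP5G2: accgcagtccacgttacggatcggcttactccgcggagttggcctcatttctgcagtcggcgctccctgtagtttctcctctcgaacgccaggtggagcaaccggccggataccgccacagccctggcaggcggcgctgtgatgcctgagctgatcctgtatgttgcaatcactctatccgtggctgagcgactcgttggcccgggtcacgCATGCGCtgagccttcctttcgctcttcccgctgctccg
SDHB: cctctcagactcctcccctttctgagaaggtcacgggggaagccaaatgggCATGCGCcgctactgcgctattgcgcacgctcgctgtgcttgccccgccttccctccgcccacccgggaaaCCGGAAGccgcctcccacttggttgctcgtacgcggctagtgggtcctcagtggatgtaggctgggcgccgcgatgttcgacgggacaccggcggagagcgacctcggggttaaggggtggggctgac
ATP5J: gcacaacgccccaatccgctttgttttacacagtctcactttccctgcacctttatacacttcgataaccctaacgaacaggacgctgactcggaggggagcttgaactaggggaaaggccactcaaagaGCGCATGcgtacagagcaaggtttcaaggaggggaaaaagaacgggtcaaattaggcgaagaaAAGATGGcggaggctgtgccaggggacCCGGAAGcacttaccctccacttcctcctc

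The libraries held 1.3066e+07 to 1.8583e+07 reads on genes. A count of 3 reads, below which no fold is given here, was worth 2.41 to 3.73 normalized counts, and that floor covers counting error only. All 9 mammary epithelial markers were present in each library, with sums from 108955 to 183139. The 6 fibroblast markers summed to 774 to 1463, almost all of it DCN and COL1A1, with COL1A2 listed at 0 in all 8 libraries and COL3A1 and LUM at 0 or 1. The 3 endothelial markers summed to 3 to 33 and the 2 adipocyte markers to 5 to 28. Of the 3 leukocyte markers, PTPRC was listed at 0 throughout and CD3E at 0 or 1, while CD68, which encodes a lysosomal protein, ran from 990 to 5017 in all but the stiff IPN replicate 2 library, where it was 324. CD68 was lower in replicate 2 of each gel, in the same direction as some members described below, and its part in those results was not tested.

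As a group, the respiratory chain genes were expressed in every library and varied less at the median than all genes tested. Single members departed from this, such as NDUFA4L2, listed at 0 in soft col:rBM replicate 1, and ATP5G2, which ran from 2874 to 7708. Together the 83 members took 1.07% and 1.06% of the normalized counts in the soft IPNs, 1.13% and 1.25% in the stiff IPNs, 0.969% and 1.08% in the soft col:rBM gels and 1.1% and 1.13% in the stiff col gels (replicates 1 and 2). The SD of the log2 level over the 8 libraries had a median of 0.186 over the members, against 0.325 over all genes tested. Members also had more reads behind them, with a median of 1668 against 374.5 normalized counts, and the part of counting error in their lower SD was not tested. Per kb of coding sequence, the median subunit gene of complex I stood at 1884 to 2279 normalized counts over the libraries and that of complex II at 2231 to 2911, while complex V stood at 4810 to 5671, complex III at 5746 to 7143 and complex IV at 8202 to 10954. The complexes kept the order I, II, V, III, IV in 7 libraries. In stiff IPN replicate 2 complexes I and II changed places, so that these neighbours did not keep apart beyond their spread. Counts were not limited to the coding sequence, so a short coding sequence can raise these values. Coding length was that of the longest coding sequence among a gene's transcripts in the GENCODE basic set. A gene with shorter forms as well can thus stand too low. The part of these choices in the order of complexes and of single genes was not tested.

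**Figure D1:**
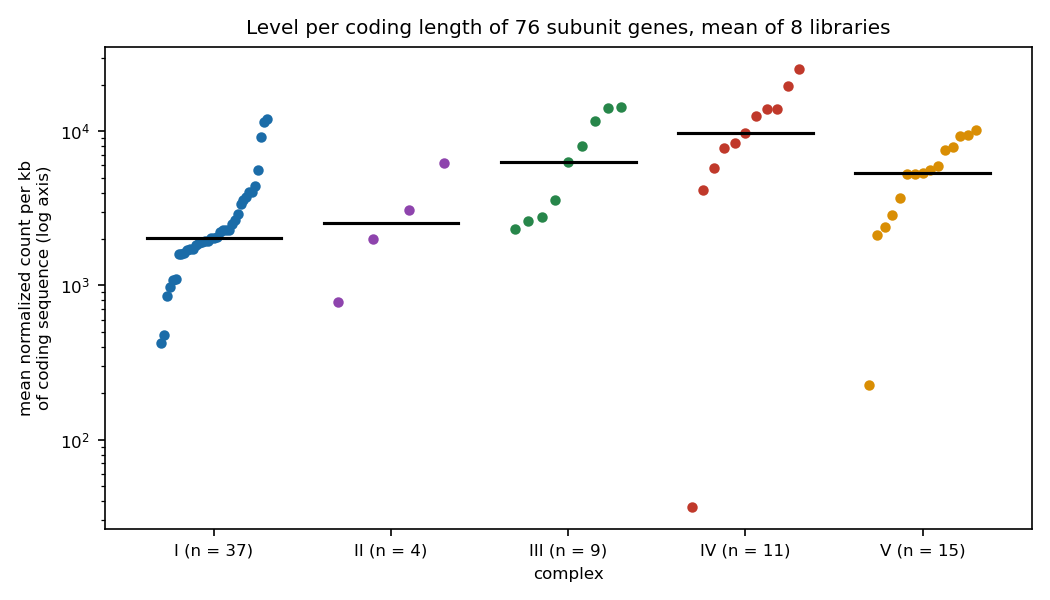
Mean normalized count of 8 libraries per kb of coding sequence on a log axis, with a point for each of 76 subunit genes grouped by complex and a bar at the median. COX7C was highest and COX6B2 (36.5) stood far below the rest. ATP5E (226) was next, followed by NDUFV3 (421) and NDUFC2 (478).

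The subunits of a complex were far from equal per kb of coding sequence, and complex IV had the widest range owing to COX6B2. The coding sequence was short in some of the highest (NDUFA1 210 bases, COX7C 189, UQCRH 273). It was long in some of the lowest (SDHA 1992, NDUFV3 1419, UQCRFS1 822), but short in COX6B2 (264) and ATP5E (153), lowest in their complexes. In complex I the accessory subunit NDUFA1 was highest (11923 normalized counts per kb of coding sequence) and NDUFV3, an accessory subunit of the NADH-oxidizing module, lowest (421). In complex II the membrane anchor SDHC was highest (6197) and the flavoprotein SDHA lowest (777). In complex III the hinge protein gene UQCRH was highest (14278) and the Rieske iron-sulphur protein gene UQCRFS1 lowest (2331). In complex IV COX7C was highest (25370) and COX6B2, the testis form of subunit 6B, lowest (36.5). The next lowest there was COX5A (4158.5), so that without COX6B2 complex IV spanned less on a log scale than complexes I and V. In complex V ATP5G2 was highest (10230) and ATP5E, the epsilon subunit of the F1 motor, lowest (226). ATP5E had 15 to 52 normalized counts in the 8 libraries although its protein is part of each ATP synthase. Its exons overlap those of TUBB1 on the other strand over 23.2% of their length, and a processed copy, ATP5EP2, was listed at 1 to 3. The authors removed multimapped reads, and what that took from ATP5E was not tested.

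**Figure D2:**
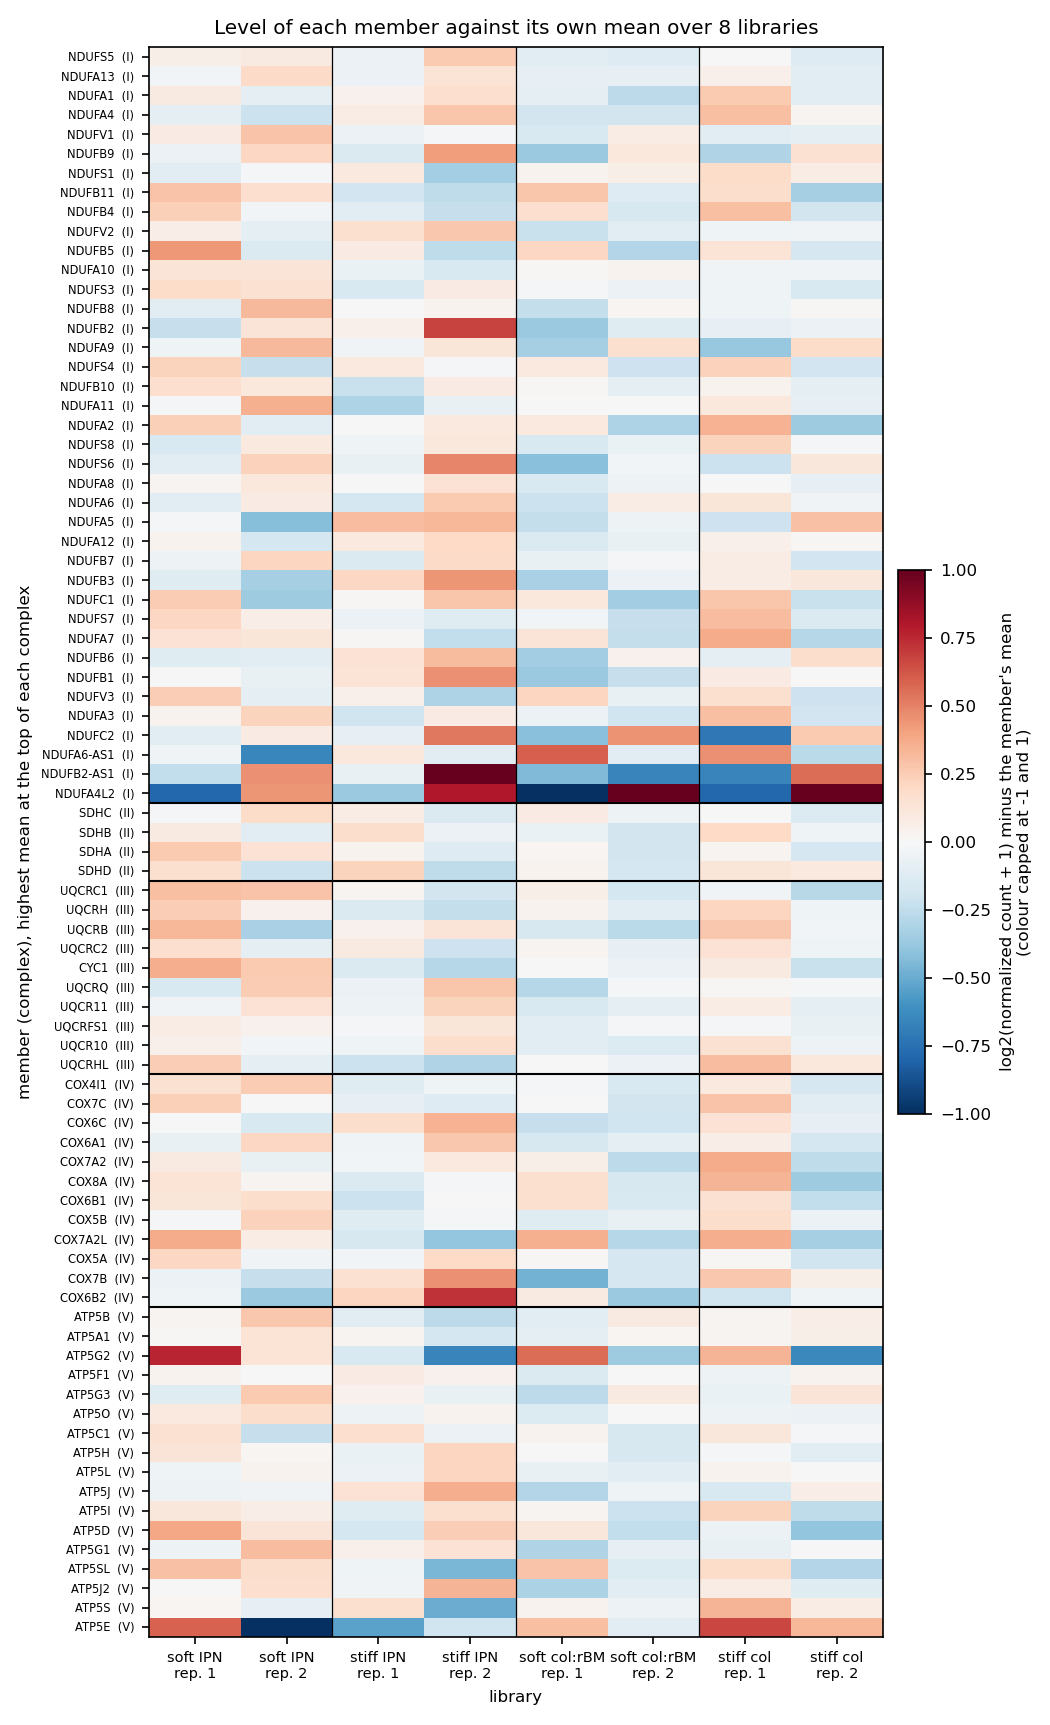
Rows are 82 members ordered by complex and then by mean level, columns are the 8 libraries, and colour is log2(normalized count + 1) minus the member's own mean, capped at -1 and 1. Most rows are pale, and the deepest colours are in NDUFA4L2, NDUFB2-AS1, COX6B2 and ATP5E, which have few reads, and in ATP5G2, which has many.

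For subunits that carry catalytic or cofactor sites, and for COX4I1, which carries neither, the levels were as follows. Those of CYC1 are given further below. NDUFV1, which binds FMN and oxidizes NADH, had 2502.5 ± 248 normalized counts (SD, n = 2) in soft IPN, 2148.5 ± 47.4 in stiff IPN, 2150.0 ± 235 in soft col:rBM and 2044.5 ± 19.1 in stiff col. NDUFS1, the large iron-sulphur subunit, had 1810.0 ± 83.4, 1750.5 ± 377, 1944 ± 24.0 and 2063 ± 111.7 in the same order. Both soft IPN libraries of NDUFV1 stood above both stiff IPN libraries, while those of NDUFS1 overlapped, and neither gene was called in a comparison of gels. In complex II, SDHA had 1773 ± 100.4 in its soft IPN libraries, above all 6 libraries of the other gels (1493 ± 116, 1459.5 ± 142 and 1469.5 ± 139), and the iron-sulphur subunit SDHB had 1659.5 ± 162, 1739.5 ± 197, 1526 ± 87.7 and 1763 ± 212. UQCRFS1 varied little, from 1779 to 2086 over all 8 libraries. COX4I1, the largest nuclear subunit of cytochrome c oxidase, had 8086 ± 404 in soft IPN, 6631.5 ± 255 in stiff IPN, 6633.5 ± 463 in soft col:rBM and 6879 ± 914 in stiff col. Of the F1 subunits that form the catalytic head, ATP5B ran from 12260 to 17743 and ATP5A1 from 8695 to 10771 normalized counts.

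Several subunits have alternative forms, and in these cells the form known from most tissues was the one present. COX4I1 had at least 6233 normalized counts in each library while COX4I2, the form known from lung and from hypoxia, was listed at 0 in all 8. COX6A1 ran from 3594 to 4896 and COX7A2 from 2390 to 3708, while their heart and muscle forms COX6A2 and COX7A1 were listed at 0 throughout. COX8A ran from 2234 to 3623 and COX8C from 0 to 2, and COX6B1 ran from 2116 to 2826 while COX6B2 ran from 7 to 16. The 3 genes for the same c subunit of the ATP synthase ring were all expressed, ATP5G1 at 941 to 1438, ATP5G3 at 3359 to 4844 and ATP5G2 at 2874 to 7708. NDUFA4, named for complex I but known as a subunit of complex IV, ran from 1906 to 2719, and its relative NDUFA4L2, known as a hypoxia-induced gene, from 0 to 15. UQCRH ran from 3288 to 4588 and its intronless copy UQCRHL from 431 to 659, but the transcripts differ at 4 of 276 bases (98.6% identity), so reads assigned to UQCRHL are uncertain. The other rows below the minimum were COX7B2, NDUFC2-KCTD14 and ATP5J2-PTCD1, listed at 0 in all libraries, and UQCRBP1, ATP5L2 and ATP5EP2, at 3 or less.

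The first comparison is stiff against soft IPN, where the ligands were kept alike. The stiff IPN was made stiff by added calcium, so stiffness and calcium cannot be told apart here. As deposited, the respiratory chain genes lay on both sides of 0, but the split moved with the processing. Of the 83 members 39 had a positive and 44 a negative difference, with a median log2 difference of -0.03 against -0.0062 for all genes tested, and the middle 50% of members lay between -0.22 and 0.08. With the block and a correction for length and GC content 62 members were negative (median -0.12), and without stiff IPN replicate 2 59 were (median -0.11). After rescaling to equal totals 71 were positive (median 0.24), where all genes had a median of 0.26 and 43 members lay below it, as many as in the deposited scaling. No member was called by limma at an adjusted p under 0.05 (0% of genes tested were). An unadjusted p under 0.05 was found for 2 of 83 members, CYC1 and NDUFB3, and for 1245 of 13369 genes tested. In the fit with a replicate block for the trial, 511 genes were called (3.82%), of which 285 were lower (2.13%), and 1 of these was a member, ATP5G2. RNA was taken from whole gels, so fewer cells of a kind and less RNA per cell cannot be told apart.

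ATP5G2 lies on chromosome 12 of hg19, from 54026510 to 54071192, and encodes the c subunit of the ring. It had 7708 and 4991 normalized counts in soft IPN and 4085 and 2874 in stiff IPN (replicates 1 and 2). Both stiff libraries lay below both soft ones, and in each replicate the stiff value was the lower, by 0.92 and 0.80 on the log2 scale. The fitted log2 difference was -0.86 ± 0.44 (SE), with an adjusted p of 0.569 in limma without the block and 0.0376 with it. With the block the call was lost without soft IPN replicate 1 (adjusted p = 0.087 in limma), soft IPN replicate 2 (0.403), soft col:rBM replicate 1 (0.0511), soft col:rBM replicate 2 (0.0521) or stiff col replicate 2 (0.0509). The log2 difference in these fits was -0.94, -0.77 and, without a collagen gel library, -0.86. It held without stiff col replicate 1 (0.0491) and without either stiff IPN library (0.0241 and 0.0204). When the 4 IPN libraries alone were fitted with the block, a fit chosen after seeing the data, the adjusted p in limma was 0.0555. The other c-ring genes had log2 differences of -0.09 (ATP5G3) and -0.03 (ATP5G1). The difference between the 3 genes and their summed level were not tested.

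**Figure D3:**
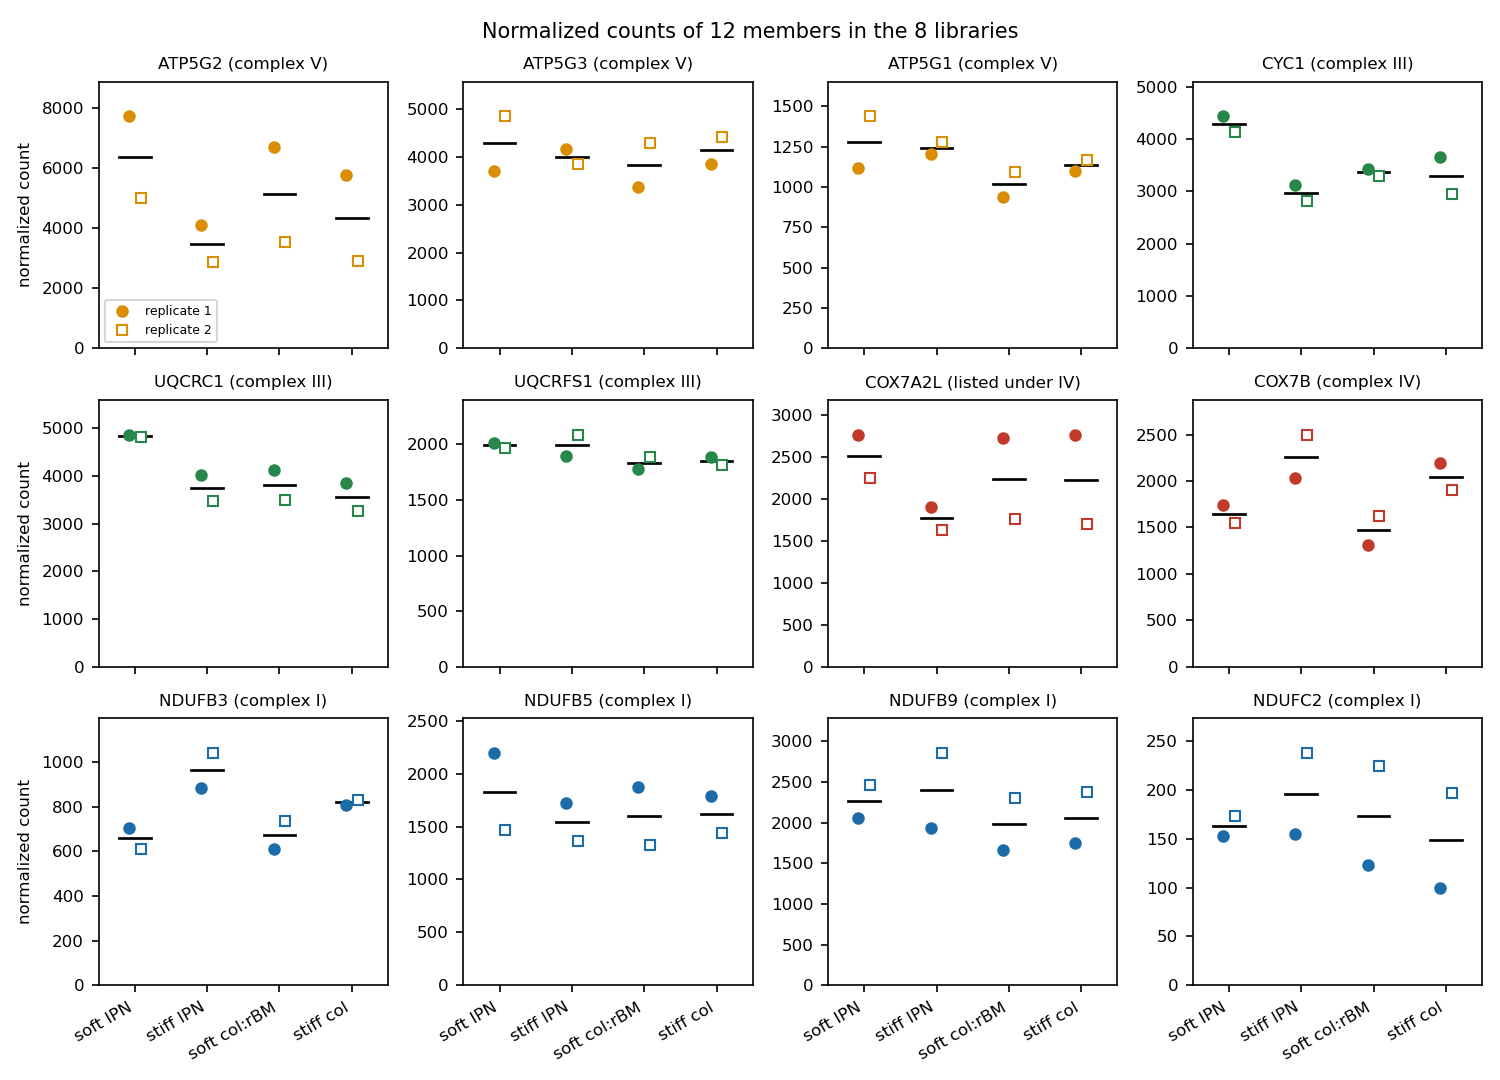
Normalized counts of 12 members in the 4 gels, with filled circles for replicate 1, open squares for replicate 2 and a bar at the mean of the 2 libraries. Each axis starts at 0. Both stiff IPN libraries of ATP5G2, CYC1, UQCRC1 and COX7A2L lie below both soft IPN libraries, those of COX7B and NDUFB3 lie above, and NDUFB5 and NDUFB9 separate by replicate.

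Beyond ATP5G2, differences between the IPNs stayed within what limma allows for, and their values are given without a call. CYC1, cytochrome c1 of complex III, had 4435 and 4133 normalized counts in soft IPN and 3115 and 2823 in stiff IPN. Its log2 difference was -0.53 ± 0.19 (SE, adjusted p = 0.499 in limma, 0.0707 with the block). UQCRC1, a core subunit beside it, had 4868 and 4818 in soft and 4020 and 3475 in stiff IPN (-0.37). COX7A2L, which joins complexes III and IV into supercomplexes, had 2766 and 2256 against 1910 and 1631 (-0.50), and ATP5SL, now DMAC2 and an assembly factor of complex I, 929 and 858 against 734 and 551 (-0.49). In the opposite direction NDUFB3 had 706 and 609 in soft and 885 and 1040 in stiff IPN (0.55), NDUFA5 had 857 and 644 against 1068 and 1085 (0.53), and COX7B had 1746 and 1552 against 2027 and 2498 (0.45). All 7 of these genes had libraries that did not overlap between the IPNs, as did 36 of 83 members (43.4%) and 41.9% of all genes tested. Of these members 12 were higher in stiff IPN (20.5% of genes tested were) and 24 lower (21.4%). COX6B2 had the largest positive value (0.68), from 9 and 7 in soft to 11 and 16 in stiff IPN, on few reads. By complex, the medians were 0.02 for complex I, -0.05 for II, -0.05 for III, -0.08 for IV and -0.09 for V.

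**Figure D4:**
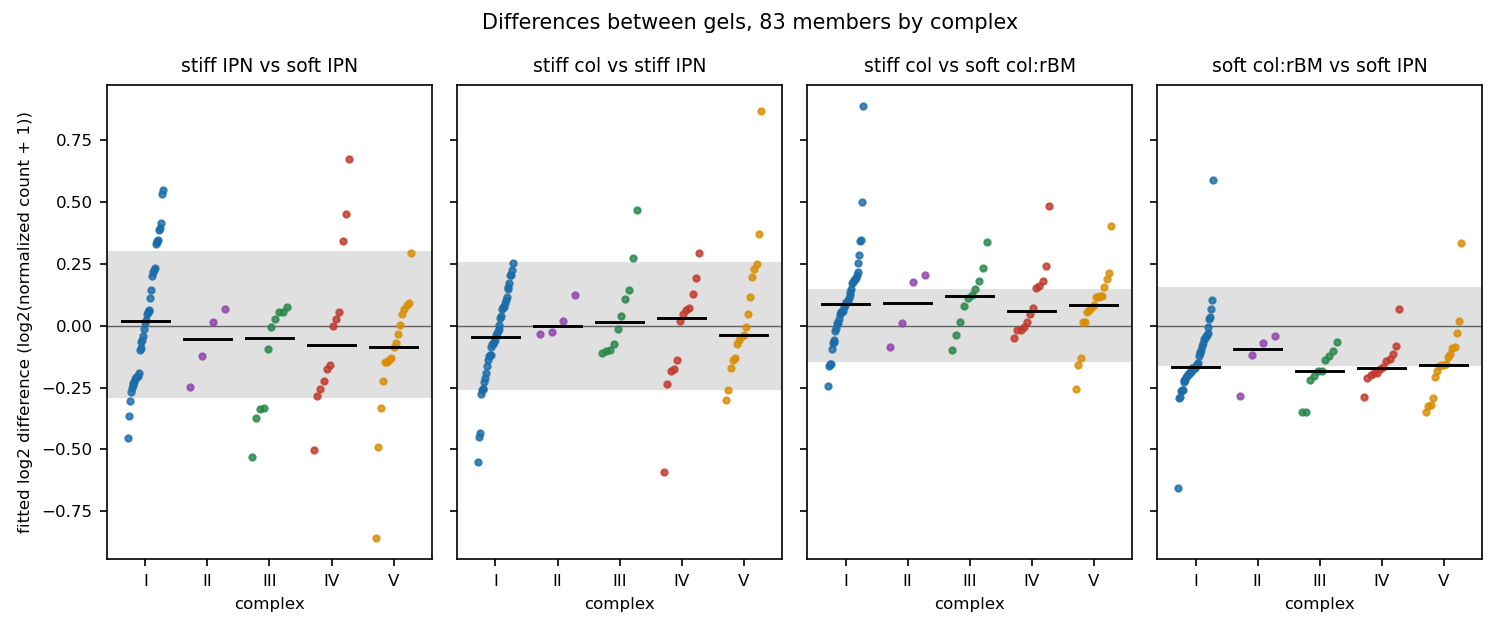
Fitted log2 differences of the 83 members in 4 comparisons, by complex, with a black bar at each median and a grey band for the middle 50% of all genes tested. Members of every complex sit on both sides of 0 in the first 2 panels, mostly above 0 in the third and mostly below 0 in the fourth.

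Between soft col:rBM and soft IPN, both soft and both with rBM, nearly all respiratory chain genes had slightly lower values in soft col:rBM. The difference was negative for 75 of 83 members, with a median of -0.16 and the middle 50% between -0.21 and -0.08, where all genes tested had a median of -0.0027 and a middle 50% between -0.16 and 0.15. All 4 members of complex II and all 10 of complex III were negative, as were 35 of 40 of complex I, 11 of 12 of complex IV and 15 of 17 of complex V. The medians lay close together, at -0.17 for complex I, -0.09 for II, -0.18 for III, -0.17 for IV and -0.16 for V. No member was called by limma (0% of genes tested), and none had an unadjusted p under 0.05 (190 of 13369 genes tested did). With the block 3 members had one (636 of 13369 genes did) but none was called (0.0224% of genes tested).

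The shift was seen in both replicates, with 74 of 83 members lower in replicate 1 (median -0.16) and 61 in replicate 2 (median -0.17). For 56 members (67.5%) the value was lower in both, against 27.6% of all genes tested, and for 3 members it was higher in both. Libraries did not overlap for 32 members (38.6%), against 20.7% of genes tested, of which 31 were lower (10.4% of genes tested were) and 1 was higher (10.3%). UQCRC1 had 4124 and 3506 in soft col:rBM, below both soft IPN libraries (-0.35 ± 0.19 SE), and CYC1 had 3423 and 3302 (-0.35). COX4I1 had 6961 and 6306 against 7800 and 8372 (-0.29), ATP5G1 had 941 and 1095 against 1120 and 1438 (-0.32), and SDHA had 1560 and 1359 against 1844 and 1702 (-0.28). The extremes of the members were rows of few reads. NDUFB2-AS1, an antisense RNA, had 6 and 5 against 7 and 12 (-0.65), and NDUFA6-AS1, now called a divergent transcript of NDUFA6, had 30 and 18 against 19 and 12 (0.59). ATP5E had 40 and 30 against 49 and 15 (0.33), with overlapping libraries.

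The number of negative members moved with the scaling, while their place against all genes did not. After rescaling to equal totals, 58 of 83 members were negative (69.9%, against 90.4% as deposited) with a median of -0.05, but all genes then had a median of 0.10, and 75 members stayed below that median, by -0.16 at the middle. Leaving out 1 of the 4 libraries gave 63 to 72 negative members, 63 without soft IPN replicate 1 or without soft col:rBM replicate 2. The members are short genes, with a median transcript length of 753 bases against 2628 for all genes tested, and in this comparison longer genes had higher differences (Spearman's rho = 0.19 across 12893 genes) and genes richer in GC lower ones (rho = -0.28). Genes are not independent replicates, so no p is given. With a correction for length and GC content in the fit with the block, the median was -0.11, and 74 members were negative.

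**Figure D5:**
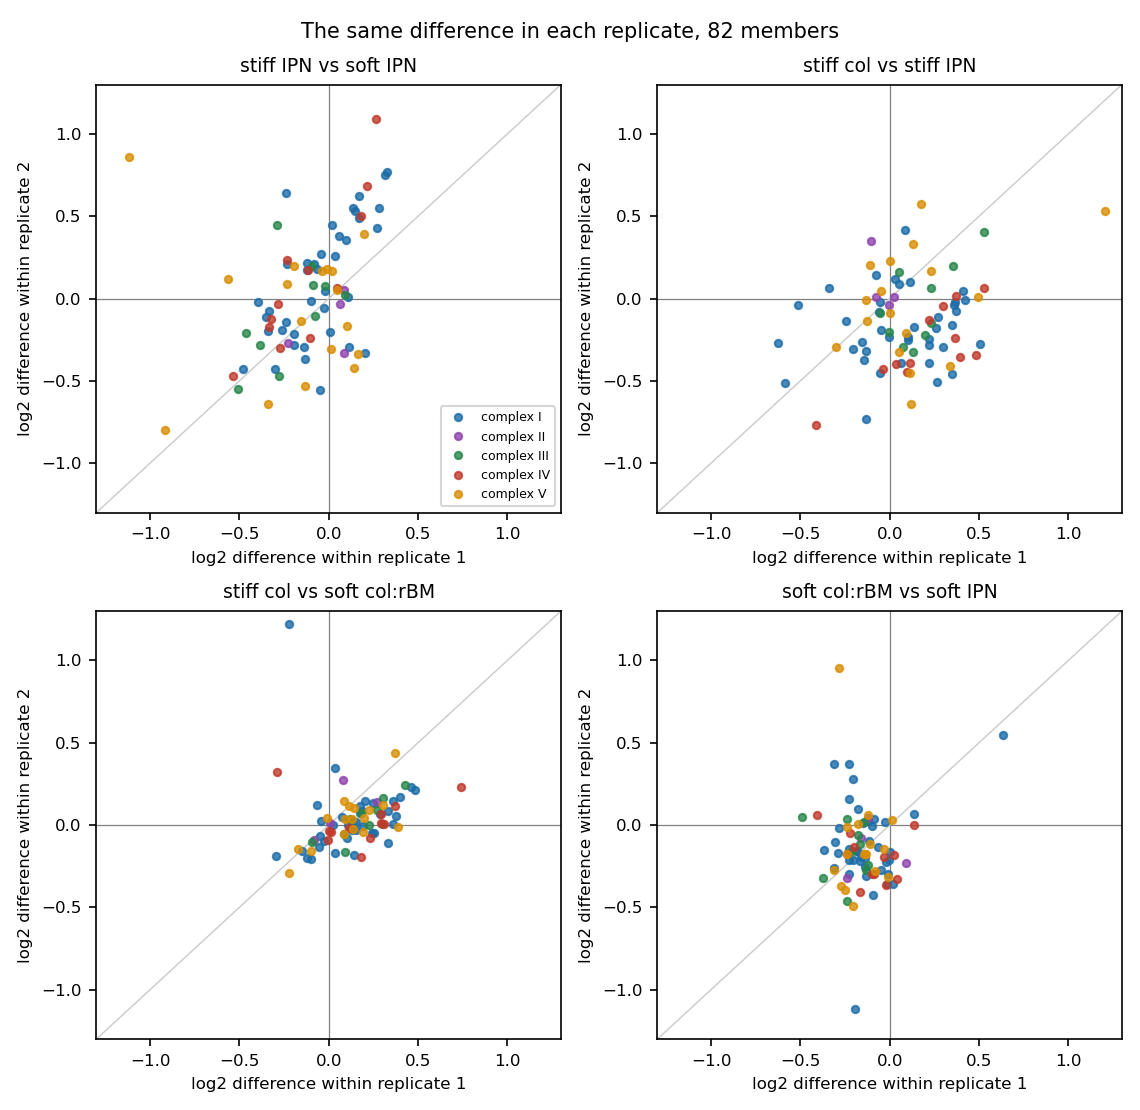
Log2 difference of 82 members within replicate 1 on the x axis and within replicate 2 on the y axis, in 4 comparisons, coloured by complex, with the diagonal in grey. NDUFA4L2, at or under 3 reads in 4 libraries, is left out. In soft col:rBM against soft IPN the points gather at the lower left of the panel.

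In stiff col against soft col:rBM the respiratory chain genes had slightly higher values in the stiff gel, in replicate 1 more than in replicate 2. The difference was positive for 63 of 83 members with a median of 0.08, against -0.0035 for all genes tested. The median was 0.14 in replicate 1, with 65 members higher, and 0.01 in replicate 2, with 46 higher. Without stiff col replicate 1 the median was 0.02 and 44 members were positive. With the correction for length and GC content the median was also 0.02, with 47 positive. This comparison and the one before it share the soft col:rBM libraries, so their opposite signs are not separate evidence. No member was called by limma with or without the block (0% of genes in each). Of the members 1, COX7B, had an unadjusted p under 0.05, with the block (497 of 13369 genes tested did) or without it (140 did).

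Among single members COX7B, a small subunit of complex IV, had 1315 and 1620 normalized counts in soft col:rBM and 2194 and 1901 in stiff col (0.48 ± 0.20 SE). NDUFA4 had 1946 and 1952 against 2719 and 2258 (0.35), NDUFB1 had 493 and 546 against 678 and 641 (0.35), and UQCRB had 3411 and 3155 against 4593 and 3741 (0.34). In each of these 4 genes both stiff col libraries lay above both soft col:rBM libraries, as in 22 of 83 members (9.51% of genes tested), and 2 members lay the other way (9.5%), with 19% of genes apart in either direction. When the 4 libraries of these gels were fitted by themselves with the replicate block, a fit chosen after seeing the data, limma called 945 genes (7.07%) and 5 members. They were COX7B (adjusted p = 0.0324), NDUFA4 (0.0185), NDUFB1 (0.0401) and UQCRB (0.0137), which rose (3.05% of genes tested did), and ATP5G2 (0.043), which fell by 0.26 on the log2 scale from 6695 and 3550 to 5745 and 2898 (4.02% of genes tested fell). In the fit of all gels without the block, the difference of ATP5G2 turned to 0.20 without soft col:rBM replicate 1 and to 0.24 without stiff col replicate 2. NDUFC2, a subunit of the membrane arm of complex I, had 123 and 225 in soft col:rBM and 100 and 197 in stiff col (-0.24). NDUFB2-AS1 had 6 and 5 against 5 and 13 (0.50). NDUFA4L2 had 0 and 13 against 2 and 15, and as its replicate 1 libraries were at or under 3 reads no fold is given.

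Between stiff col and stiff IPN, a collagen-1 gel and a network of alginate and rBM, 37 members had a positive and 46 a negative difference, with a median of -0.02. After rescaling to equal totals 62 were negative (median -0.14, where all genes had -0.11), with the block and the length and GC correction 50 were positive (median 0.045), and without stiff col replicate 1 64 were negative. The sign differed between replicates, with a median of 0.10 and 54 members higher in replicate 1 and of -0.15 and 58 members lower in replicate 2. Complex IV showed this most, at 0.26 in replicate 1 (10 of 12 higher) and -0.35 in replicate 2 (10 of 12 lower). No member was called by limma without the block (0% of genes tested) or with it (2.47%). Without the block 838 of 13369 genes tested had an unadjusted p under 0.05, and of the members UQCRHL alone. Its values were 456 and 431 in stiff IPN and 659 and 571 in stiff col (0.47), and those of UQCRH, from which its reads cannot be told apart for certain, were 3509 and 3288 against 4491 and 3769 (0.28). ATP5E had 22 and 28 against 52 and 41 (0.87), COX6B2 had 11 and 16 against 8 and 9 (-0.59) and NDUFB2-AS1 had 8 and 19 against 5 and 13 (-0.55). Libraries did not overlap for 20 of 83 members (24.1%), against 30.9% of genes tested.

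To set the 2 gel systems side by side, the difference between the IPNs was subtracted from that between the collagen gels. The collagen gels differ in composition too and the IPNs in added calcium, so the result does not measure stiffness alone. It equals the difference between the stiff gels minus that between the soft gels (member medians -0.02 and -0.16), so it is not separate evidence from those comparisons. The result was positive for 69 of 83 members with a median of 0.14, against 0.01 for all genes tested, and for all 10 members of complex III (median 0.22). The median was 0.23 in replicate 1 and -0.02 in replicate 2, and after rescaling to equal totals it was -0.08, with 25 members positive, where all genes had a median of -0.21. No member was called by limma without the block (0% of genes tested) or with it (0.015%). None had an unadjusted p under 0.05 without the block (278 of 13369 genes tested did). ATP5G2, CYC1, UQCRH and UQCRHL had one with it, as did 1321 of 13369 genes tested. ATP5G2 (0.60 ± 0.62 SE) and UQCRHL (0.57 ± 0.28) had the largest positive values, and COX6B2 (-0.66 ± 0.71) and NDUFA6-AS1 (-0.50 ± 0.70) the largest negative ones. With 1 library left out ATP5G2 ran from 0.11 to 1.09 and NDUFA6-AS1 from -0.86 to -0.14.

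Far more genes were called between replicates than between gels, but by tests of unlike power. The replicates were compared over the 4 gels with terms for gel and replicate, and each pair of gels with 2 libraries against 2. The counts thus do not compare the sizes of the differences. Between replicate 2 and replicate 1 over the 4 gels limma called 3619 genes (27.1%) and 11 members (13.3%). These shares were not tested against each other. ATP5G2, COX7A2L, NDUFB5, ATP5SL, NDUFV3 and NDUFS4 fell in replicate 2 (14.4% of genes tested did), and NDUFA4L2, NDUFC2, NDUFB9, NDUFS6 and NDUFA9 rose (12.7%). Counting uncalled members too, 39 differences were positive and 44 negative, with a median of -0.02. All 4 members of complex II were negative (median -0.18, none called). The count of called members followed that of all genes. It was 3 when either soft IPN library was left out (3.61%, against 12% and 12.2% of genes tested), 21 when either stiff IPN library was (25.3%, against 43.7% and 43.6%) and 1 when any of the collagen gel libraries was (1.2%, against 9.07% to 9.18%).

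ATP5G2 had the largest negative difference of the members. Its log2 difference between replicates was -0.63 in soft IPN, -0.51 in stiff IPN, -0.92 in soft col:rBM and -0.99 in stiff col, and the fitted one was -0.76 ± 0.12 (SE, adjusted p = 0.0053 in limma). COX7A2L had, with the gels in that order, 2766, 1910, 2729 and 2758 in replicate 1 and 2256, 1631, 1756 and 1702 in replicate 2 (-0.46, adjusted p = 0.0224). NDUFB5, an accessory subunit of the membrane arm, had 2194, 1722, 1874 and 1788 in replicate 1 and 1467, 1360, 1327 and 1443 in replicate 2, with no overlap (-0.43, adjusted p = 0.0162). NDUFB9, another subunit of that arm, had 2054, 1940, 1658 and 1744 in replicate 1 and 2468, 2856, 2302 and 2377 in replicate 2, again with no overlap (0.44, adjusted p = 0.0158). Subunits of the same arm thus differed in opposite directions. NDUFC2 had 153, 155, 123 and 100 in replicate 1 and 174, 238, 225 and 197 in replicate 2 (0.66, adjusted p = 0.0264), and 18.6% of its exon bases are shared with the read-through NDUFC2-KCTD14. NDUFA4L2 had 2, 3, 0 and 2 in replicate 1, all at or under 3 reads, and 6, 8, 13 and 15 in replicate 2 (adjusted p = 0.0227), so that no fold is given.

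Beside the subunit genes, 10 other lists of mitochondrial and hypoxia genes were followed, and no gene of them was called between gels by limma without the block. With the block ADM, a hypoxia-induced peptide hormone gene, fell in stiff against soft IPN, from 604 and 2630 to 262 and 257 (-2.28, adjusted p = 0.0328), and SLC25A4, the heart form of the ADP/ATP carrier, fell from 613 and 902 in stiff IPN to 345 and 513 in stiff col (-0.82, adjusted p = 0.0331). All 10 hypoxia response genes had a negative fitted difference in stiff against soft IPN (median -1.3), as did 6747 of 13369 genes tested. ADM was the 1 called with the block (3.82% of genes tested were). The replicates differed, since all 10 were lower in stiff IPN within replicate 2 but not within replicate 1. There VEGFA (3927 to 4347), PDK1 (439 to 576) and LDHA (41512 to 51823) were higher and the others lower. In stiff col against soft col:rBM all 10 were negative too (median -0.52), and none was called. The respiratory chain genes stood at -0.03 and 0.08 in the same comparisons, and the lists were not tested against each other.

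In the other lists the medians between the soft gels lay between -0.22 and 0.02. In soft col:rBM against soft IPN the medians were -0.09 for 14 assembly factors of complex I, -0.12 for 4 of complex II, -0.18 for 6 of complex III, -0.19 for 21 of complex IV and -0.03 for 3 of complex V, with 9, 3, 5, 19 and 2 members negative. They were -0.12 for 7 other subunits and carriers such as CYCS and NDUFAB1, -0.11 for 16 citric acid cycle genes (14 negative) and -0.16 for the 13 tested of 14 carriers, channels and import genes (13 negative), but 0.02 for 14 regulators of mitochondrial biogenesis such as PPARGC1A, NRF1 and TFAM (6 negative) and -0.22 for the hypoxia genes (8 negative). In stiff against soft IPN the assembly factors of complexes I to V stood at 0.19, 0.05, -0.04, 0.14 and -0.14, the other subunits and carriers at 0.19, the citric acid cycle at -0.05, the regulators at 0.02 and the carriers at -0.09.

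Between replicates these lists held called genes in both directions, beside 27.1% of all genes tested, and no list was tested against that share. Of the 14 complex I assembly factors 5 were called, among them ECSIT (-0.93), NDUFAF6 (0.88) and NDUFAF2 (-0.44). C6orf57, now SDHAF4, was the 1 called of 4 for complex II (-0.99), none of 6 was called for complex III, and COX20 (0.66), COA7 (0.46) and COX18 (-0.39) were called of 21 for complex IV. TMEM70, needed for ATP synthase assembly, was the 1 called of 3 for complex V (0.42). HIGD1A (0.42) and HIGD2A (-0.46) were called of the 7 other subunits and carriers, SUCLG2 (-0.77) of 16 citric acid cycle genes, PPARGC1B (0.96), a coactivator of mitochondrial biogenesis, of 14 regulators, and 6 of 13 carriers, among them TOMM40 (0.79), HSPE1 (0.48) and TOMM20 (-0.48). ADM was the 1 called of 10 hypoxia genes (1.04).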

How the data were processed

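RNA-seq of MCF10A cells in 4 hydrogels, 2 libraries each, was used. Per the labels the libraries were made with an unstranded kit (TruSeq RNA Library Prep Kit v2). The submitters' processing notes name Trim Galore 0.3.3, TopHat2 2.0.13, SAMtools 1.1, HTSeq, DESeq2, R 3.2.0 and build hg19, while the study's methods name Bowtie2 as the aligner, with unmapped, low quality and multimapped reads removed. The annotation and strand setting used for counting are not given in the sources used here. The deposited values are a score, namely read counts that the authors divided by 1 factor per library and rounded to whole numbers, called normalized counts here. Raw counts were not used here. Total reads were worked out from the steps in these values. Dates had replaced 28 of the symbols.

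Positions came from GENCODE 44 lifted to hg19, in which 22707 of 25369 symbols were found, and promoters and sequences from RefSeq. Genes with at least 10 in at least 2 libraries (13369) were log2-transformed after adding 1 and fitted in R 4.3.3 by limma 3.58.1 with the help of statmod 1.5.0. The gels each had a mean, variances were moderated robustly along a trend in expression, and p-values had Benjamini-Hochberg adjustment over all genes tested at a threshold of 0.05. Log2 differences are on that scale, which understates those of low genes. The fit was tested on simulated data. Replicate 2 was compared with replicate 1 in a fit with both gel and replicate. Differences between replicates correlated across genes in all 6 pairs of gels (r from 0.28 to 0.82), and the study describes separate trials, so the numbers pair the libraries, and a fit with the replicate as a block was an alternative. With 2 libraries against 2, an exact two-sided permutation test cannot go below p = 0.333. Python 3.11.15 (pandas 2.3.3, numpy 2.4.6, scipy 1.17.1) gave the summaries, and matplotlib 3.10.9 the plots.

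The members and lists were chosen with earlier results of these data known. Named were up to 3 called members per direction and comparison (by the fit without the block, else with it, else the 2 largest differences). Also named were the alternative forms, the catalytic and cofactor subunits, COX4I1 and the members that are no subunit. The extremes per coding length and up to 3 called genes of each other list were named too. Other members named between gels, such as UQCRC1, NDUFB3, NDUFA5 and COX7B, were chosen after their values were seen. A member that the rule names is not reported here. Overlaps in annotation were counted over exons of GENCODE genes.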

Additional observations from a re-analysis of the deposited data

How the results depend on the processing

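Counts of called members kept within 1.5 times under all alternatives tried but those given here. With the replicate block, 1 member was called between stiff and soft IPN, and 1 with the block and a correction for length and GC content, against 0 without the block. Fits of the 2 collagen gels alone with the replicate block, added after seeing the data, called 5 members against 0. No other call of a member between gels was gained by the block. With the block, leaving out 1 library gave 0 to 7 called members between the IPNs, 3 when stiff IPN replicate 2 was omitted (3.61%, against 8.17% of genes tested) and 7 when stiff IPN replicate 1 was (8.43%, against 20.1%). The latter omission also gave 4 called members between stiff col and stiff IPN (4.82%, against 16.6%). Leaving out 1 library without the block gave 0 called members in each comparison of gels, and 1 to 21 between replicates. Under the same omissions the median ranged from -0.11 to 0.012 for stiff against soft IPN, from -0.10 to 0.07 for stiff col against stiff IPN, from 0.02 to 0.15 for stiff col against soft col:rBM, from -0.17 to -0.13 for soft col:rBM against soft IPN, from 0.04 to 0.18 for the difference between gel systems and from -0.06 to 0.02 between replicates.

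Rescaling to equal totals gave member medians of 0.24 between the IPNs, -0.14 for stiff col against stiff IPN, -0.055 between the soft gels, -0.081 for the difference between gel systems and 0.11 between replicates, and it moved the median of all genes tested to 0.26, -0.11, 0.10, -0.21 and 0.12. With the block and the length and GC correction the median was -0.12 between the IPNs and -0.11 between the soft gels. It turned to 0.045 for stiff col against stiff IPN and to 0.06 between replicates. Within replicate 2 alone and without that correction, the median between the soft gels was -0.17. For some named members the sign rested on 1 library. Omitting single libraries, NDUFB2-AS1 in stiff col against stiff IPN ran from -1.16 to 0.061, being positive without stiff IPN replicate 2 (0.026) or stiff col replicate 1. In stiff col against soft col:rBM, ATP5G2 ran from -0.75 to 0.24, with 0.20 without soft col:rBM replicate 1 and 0.24 without stiff col replicate 2. NDUFC2 ran from -0.73 to 0.24, with 0.19 without soft col:rBM replicate 2 and 0.24 without stiff col replicate 1. The fitted value of NDUFA4L2, which rests on libraries at or under 3 reads and is no measure of a fold, ran from -1.01 to 2.79, with -1.01 without soft col:rBM replicate 1 and -0.32 without stiff col replicate 2. NDUFB2-AS1 ran from -0.11 without stiff col replicate 2 to 1.11, and was -0.22 within replicate 1 alone. In soft col:rBM against soft IPN, ATP5E ran from -0.49 without soft IPN replicate 2 to 1.16, and was -0.29 within replicate 1 alone. The cause was not tested. Depth limits NDUFA4L2, COX6B2, NDUFB2-AS1, NDUFA6-AS1 and ATP5E, and 2 trials limit every comparison.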
